A study of Sus scrofa with 8 samples.

Results

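Structural genes of the Z-disc and the M-band were examined in the right ventricular free wall of pigs with and without a pulmonary artery band. The set was defined by name and held 9 genes: MYOM1, MYOM2, MYOM3, TTN, TCAP, ACTN2, ACTN3, MYOZ2 and MYOT. Names were looked up in the gene name column of the authors' deposited comparison, or in its one-to-one human orthologue name, and joined by identifier to the deposited counts. This found 8 of the 9 among 31908 gene models, MYOM2 through its human name and the others through the pig name. TTN matched no model and was followed by position instead, as described further on.

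All animals were Yorkshire cross pigs. The banded group comprised 4 castrated male piglets, operated on at 4.5 ± 0.6 weeks of age and 6.4 ± 1.3 kg, in which a tape around the main pulmonary artery was tightened until peak right ventricular systolic pressure was about 30 to 40 mmHg. The control group comprised 4 pigs of like age and weight, kept for 8 weeks, with treatment given as none and with no sex and no sham operation stated. How long the band was in place before tissue was taken is not stated in the labels. Each library came from 1 animal, and total counts were 31033679 to 34183338 per library. Sex, surgery and any difference in handling between the groups cannot be told apart from banding.

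The sarcomere, the contractile unit of striated muscle, is bounded by Z-discs, where actin filaments of neighbouring units are cross-linked by alpha-actinin. Titin, the giant protein encoded by TTN, runs from the Z-disc, where telethonin (TCAP) caps its end, to the M-band in the middle of the sarcomere, where myomesins link it to the myosin filaments. Both structures bear the load on the muscle cell, and pressure overload is known to remodel the heart's sarcomeres.

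The 8 matched genes lie on 6 chromosomes of build Sscrofa11.1, in Ensembl's gene models. MYOM1 spans chromosome 6 from 103451343 to 103597324 and MYOM3 chromosome 6 from 81799570 to 81860046. MYOM2 spans chromosome 15 from 33496988 to 33606928, ACTN2 chromosome 14 from 54666623 to 54742779 and MYOZ2 chromosome 8 from 104574430 to 104609328. TCAP spans chromosome 12 from 22651666 to 22653453, ACTN3 chromosome 2 from 5858845 to 5874124 and MYOT chromosome 2 from 139861004 to 139919095. Some models reach into neighbouring genes. The MYOZ2 model lies wholly within the RefSeq span of SEC24D, with 25.3% of its exon bases inside RefSeq MYOZ2. The MYOT model has 35.4% of its exon bases inside the RefSeq gene LOC106509573 and 64.6% inside RefSeq MYOT. A further RefSeq gene, the lncRNA LOC110259498, holds 31.8% of them, and the span of KLHL3 holds 20.0%. The MYOT counts can therefore hold reads of other genes. The TCAP model shares 27.7% of its exon bases with STARD3 on the same strand, and the MYOM1 model 13.0% with LPIN2. The ACTN3 model shares 21.0% with CTSF on the opposite strand. STARD3 had at most 17 counts in any library and LPIN2 at most 846, against at least 51238 for TCAP and 9439 for MYOM1.

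Banding was accompanied by changes in both directions. All 8 genes passed the filter on low counts, ACTN3 through the controls alone, so that its call is no support. In edgeR's quasi-likelihood test 2 were called higher in banded pigs (MYOT and MYOZ2) and 2 lower (MYOM3 and ACTN3) at an adjusted p under 0.05, and the values of the groups did not overlap for 6 of the 8. ACTN3 is counted in the 2 lower and in the 6, and its lack of overlap is no support either. Among all 13697 genes tested, 6.97% were called (3.47% higher and 3.50% lower) and 15.9% had groups that did not overlap. Of the genes of the Z-disc in cardiac muscle, MYOT, MYOZ2, ACTN2 and TCAP had positive log2 fold changes of banded over control, and the myomesins MYOM1, MYOM2 and MYOM3 had negative ones. These are levels in bulk tissue, in which fewer cells of a type and less RNA per cell cannot be told apart. With at least 50 counts required in 4 libraries, ACTN3 was not tested and 2 of 7 were called higher and 1 lower. Over all genes that fit called 460 of 11643 higher and 480 lower. Without control 1, control 2 or control 3 the number of the 8 genes called was 2 (MYOT and MYOM3). Calls over all genes also fell in these fits, to 399 of 13927, 415 of 13926 and 409 of 13906.

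**Figure D1:**
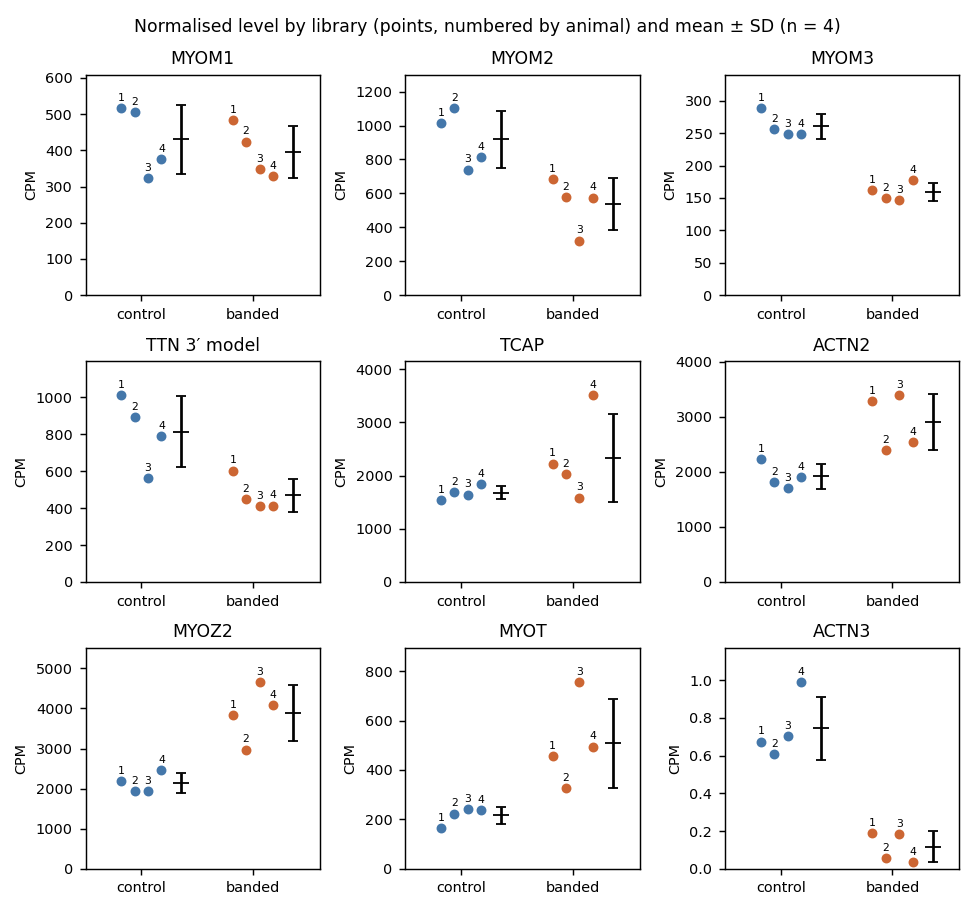
TMM-normalised counts scaled to library size (CPM, the usual unit of count tables, vertical axes from 0) of the 8 matched genes and of the gene model at the 3′ end of TTN, with 1 numbered point per animal and the mean ± SD (n = 4) beside each group. The banded points of MYOZ2, MYOT and ACTN2 lie above all control points, and those of MYOM2, MYOM3 and ACTN3 below all control points.

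MYOZ2, whose product (calsarcin) binds alpha-actinin and the phosphatase calcineurin at the Z-disc, was the most abundant of the set in CPM. It was at 2195, 1945, 1947 and 2470 CPM in controls 1 to 4 and at 3836, 2976, 4663 and 4092 CPM in banded 1 to 4. Every banded library lay above every control. The means were 2139 ± 249.6 and 3892 ± 702 CPM (SD, n = 4), and MYOZ2 rose by 0.86 ± 0.17 on the log2 scale (SE, edgeR adjusted p = 0.0144). Without control 1, control 2 or control 3 the log2 fold change was 0.87, 0.82 and 0.82, and the adjusted p was 0.0527, 0.0594 and 0.0583. With 25.3% of the model's exon bases inside RefSeq MYOZ2, any part of SEC24D reads in its level and rise was not tested.

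MYOT encodes myotilin, a Z-disc protein that binds alpha-actinin, filamin and actin. It was at 165, 223, 241 and 236 CPM in controls 1 to 4 and at 455, 328, 756 and 494 CPM in banded 1 to 4. The groups were apart, and banded 3 held the highest value. MYOT rose from 217 ± 34.9 to 508 ± 180 CPM (SD, n = 4), a log2 fold change of 1.23 ± 0.24 (SE, edgeR adjusted p = 0.0121). This was the largest rise among the 8 genes, and it was 0.97 (adjusted p = 0.0123) without banded 3. Because of the merged model, how much of the rise belongs to MYOT and how much to LOC106509573, LOC110259498 or KLHL3 was not tested.

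ACTN2, the alpha-actinin of cardiac muscle and the main cross-linker of the Z-disc, was at 2238, 1821, 1711 and 1909 CPM in controls 1 to 4 and at 3284, 2389, 3397 and 2536 CPM in banded 1 to 4. All 4 banded values were above all controls, with a gap of 2238 to 2389 CPM between the groups. The means were 1920 ± 227 and 2901 ± 512 CPM (SD, n = 4). The log2 fold change of 0.60 ± 0.17 (SE) missed the threshold in edgeR (adjusted p = 0.0585). It passed in DESeq2 (adjusted p = 0.00453), in limma-voom with quality weights (0.0356) and in edgeR without banded 2 (0.0441).

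TCAP, the titin cap of the Z-disc, was at 1545, 1691, 1644 and 1832 CPM in controls 1 to 4 and at 2225, 2029, 1584 and 3515 CPM in banded 1 to 4. Banded 3 lay within the controls, and banded 4 was far above the rest. The means were 1678 ± 119 and 2338 ± 829 CPM (SD, n = 4), and the difference was not called (log2 fold change 0.48 ± 0.22, SE, edgeR adjusted p = 0.216). It was 0.22 without banded 4 and 0.63 without banded 3, with adjusted p-values of 0.476 and 0.0957.

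ACTN3, the alpha-actinin of fast skeletal fibres, was close to the limit of detection. It had 23, 21, 25 and 30 counts in controls 1 to 4 and 6, 2, 6 and 1 counts in banded 1 to 4. The controls held 0.609 to 0.991 CPM and the banded libraries 0.0348 to 0.189 CPM, where 3 counts correspond to 0.0878 to 0.0967 CPM of all counts. The log2 fold change was -2.63 ± 0.62 (SE, edgeR adjusted p = 0.0287). Only the controls reached the minimum count of 10 that let the gene into the test, so a difference was built into its selection, and the call is given as a description. Summed over libraries, 99 counts stood against 15, a ratio of control to banded of 6.28 (exact 95% interval 3.63 to 11.6, counting error only). The call ended without control 1 (adjusted p = 0.0714), control 2 (0.0737), control 3 (0.0822), control 4 (0.0700), banded 2 (0.0703) or banded 4 (0.0524). CTSF, on the opposite strand, had 1365 to 1877 counts in controls and 1043 to 1912 in banded libraries, and its part in the ACTN3 counts was not tested.

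At the M-band, MYOM3 was the gene with the least spread between animals. Its product is a myomesin known from slow and intermediate skeletal fibres. It was at 289, 256, 249 and 248 CPM in controls 1 to 4 and at 162, 149.8, 146 and 178 CPM in banded 1 to 4. The groups were far apart, with coefficients of variation of 7.32% and 8.94%. MYOM3 fell from 261 ± 19.1 to 159 ± 14.2 CPM (SD, n = 4), a log2 fold change of -0.71 ± 0.13 (SE, edgeR adjusted p = 0.00824). Its call held in all 18 alternatives, with log2 fold changes of -0.82 to -0.66.

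MYOM2, the M-protein of adult heart and fast muscle, was at 1016, 1103, 741 and 816 CPM in controls 1 to 4 and at 684, 578, 322 and 574 CPM in banded 1 to 4. The groups did not overlap, and banded 3 was lowest. The means were 919 ± 169 and 540 ± 154 CPM (SD, n = 4; banded mean 539.5), with a log2 fold change of -0.77 ± 0.23 (SE) that missed the threshold in edgeR (adjusted p = 0.0658). The adjusted p was 0.0108 in DESeq2 and 0.0398 in edgeR when no genes were filtered for low counts. MYOM1, the myomesin common to all striated muscle, was at 517, 507, 324 and 376 CPM in controls 1 to 4 and at 484, 424, 348 and 328 CPM in banded 1 to 4. The groups overlapped throughout (log2 fold change -0.12 ± 0.19, SE, edgeR adjusted p = 0.750).

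The makeup of the myomesin transcripts differed between the groups. Counts were divided by the length of each gene model (6091 bases for MYOM1, 11959 for MYOM2 and 6798 for MYOM3). The size of each share depends on these lengths, and the MYOM1 model shares 13.0% of its exon bases with LPIN2. Only the difference between the groups is therefore read. Without division by length the MYOM2 share was lower by 8.43 percentage points in banded libraries (exact permutation p = 0.0286). MYOM2 made up 40.0%, 43.3%, 40.8% and 41.0% of the summed myomesin counts per kilobase in controls 1 to 4 and 35.6%, 34.5%, 25.5% and 37.5% in banded 1 to 4. Its share was 41.3% ± 1.39 in controls and 33.3% ± 5.35 in banded libraries (SD, n = 4), lower by 7.99 percentage points (exact two-sided permutation p = 0.0286, the smallest that 4 against 4 can give, and 0.0381 adjusted over 4 such ratios). The share of MYOM1 was 35.0% to 40.0% in controls and 42.1% to 54.1% in banded libraries. The share of MYOM3 was 20.9% ± 2.75 and 17.9% ± 2.96 and overlapped (exact permutation p = 0.200, adjusted 0.200). The summed myomesin level was 186 ± 31.5 CPM per kilobase in controls and 134 ± 23.0 in banded libraries (SD, n = 4; 133.5 before rounding), and the groups overlapped.

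**Figure D2:**
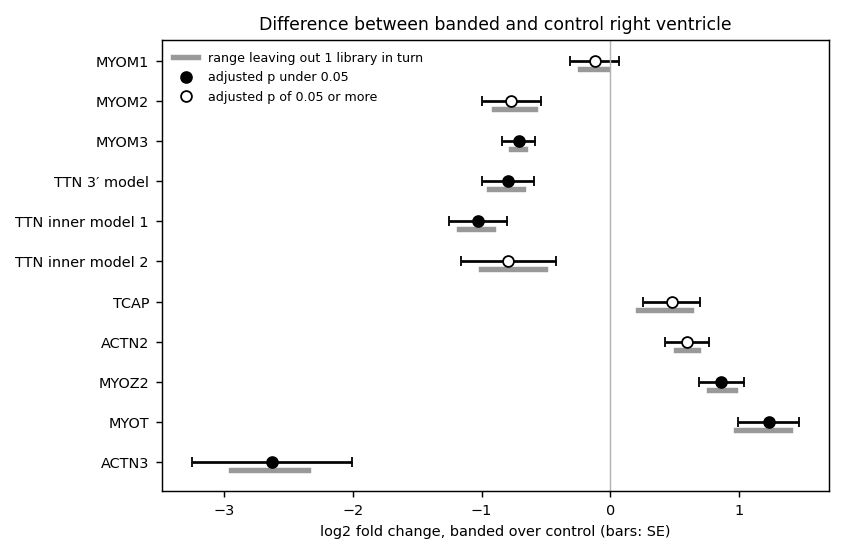
Log2 fold change of banded over control (horizontal axis, black bars: SE) for the 8 matched genes and 3 gene models within TTN, with grey bars for the range when 1 library is left out in turn. Filled points (MYOM3, MYOT, MYOZ2, ACTN3 and 2 TTN models) have an adjusted p under 0.05, and no grey bar crosses 0.

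Titin itself is split in the annotation used for counting. RefSeq places TTN on chromosome 15 from 84226953 to 84501320 on the same build, and 4 unnamed gene models lie within that span, all on the minus strand. Their exons cover 0.86%, 2.83%, 0.87% and 0.60% of the span. The span includes introns, so these shares do not give the part of the TTN transcript that was counted, which was not measured. The first model, with 5 exons from 84226953 to 84230496, begins at the same base as RefSeq TTN and therefore sits at the 3′ end. As background, that end of titin encodes the part anchored in the M-band. It was at 1013, 892, 565 and 791 CPM in controls 1 to 4 and at 603, 448, 410.3 and 414 CPM in banded 1 to 4. Banded 1 lay above control 3, and the other banded libraries lay below all controls. The 3′ model fell from 815 ± 190.2 to 469 ± 91.1 CPM (SD, n = 4), a log2 fold change of -0.80 ± 0.20 (SE, edgeR adjusted p = 0.0371). The call ended in limma-voom with quality weights (0.0659) and without control 1 (0.122), control 2 (0.112), control 4 (0.0578), banded 2 (0.0726), banded 3 (0.0675) or banded 4 (0.0724).

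The other models lie further inside the gene and had few counts. A model of 28 exons from 84399015 to 84416223 was at 10.3, 7.63, 5.82 and 10.4 CPM in controls 1 to 4 and at 4.20, 3.41, 4.58 and 4.62 CPM in banded 1 to 4. All banded values were below all controls (log2 fold change -1.02 ± 0.23, SE, edgeR adjusted p = 0.0217). Leaving out control 1 (0.0737), control 4 (0.0523) or banded 2 (0.0526) ended the call. Per kilobase it stood at 1.10 ± 0.288 CPM in controls, against 347 ± 80.9 for the 3′ model. A model of 8 exons from 84423605 to 84426239 was at 1.39 to 4.03 CPM in controls and 1.15 to 2.13 CPM in banded libraries and was not called (-0.79 ± 0.37, adjusted p = 0.217). A model of 7 exons from 84406181 to 84411489 had 0 counts in all 8 libraries. It lies within the span of the 28-exon model on the same strand, and reads that overlap several models were not assigned. The part of this nesting in the low counts of these 2 models was not tested. The inner exons of titin are known to be used differently between its isoforms under the splicing factor RBM20. RBM20 was at 101 ± 22.0 and 75.1 ± 5.72 CPM (SD, n = 4) and was not called (log2 fold change -0.42, adjusted p = 0.134).

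Ratios to the titin 3′ model within each library do not depend on scaling between libraries. The log2 ratio of ACTN2 to TTN, in counts per kilobase, was -1.14, -1.26, -0.69 and -1.01 in controls 1 to 4 and 0.16, 0.13, 0.76 and 0.33 in banded 1 to 4. The ratio was below 0 in every control and above 0 in every banded library. Where 0 lies depends on the lengths of the 2 gene models (11469 bases for ACTN2, 2352 for the TTN fragment). Only the difference between the groups can therefore be read, not which gene has the higher level. The difference was 1.37 on the log2 scale (exact two-sided permutation p = 0.0286, adjusted 0.0381). The log2 ratio of TCAP to TTN was 1.24, 1.55, 2.17 and 1.84 in controls 1 to 4 and 2.51, 2.81, 2.58 and 3.71 in banded 1 to 4. These did not overlap either, and the difference was 1.20 (exact two-sided permutation p = 0.0286, adjusted 0.0381).

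**Figure D3:**
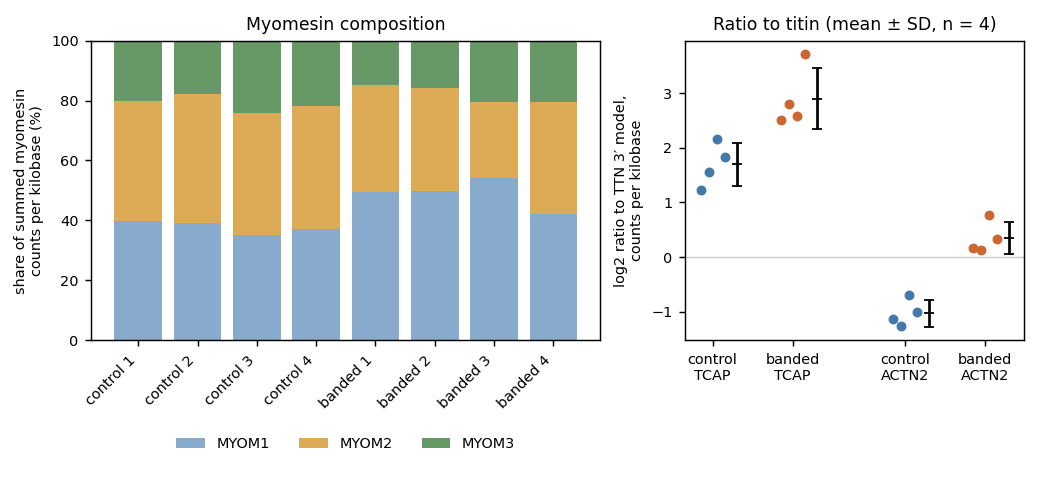
Left, share of each myomesin gene in the summed myomesin counts per kilobase of each library (vertical axis, %). Right, log2 ratio of TCAP and of ACTN2 to the TTN 3′ model in counts per kilobase, with 1 point per animal and the mean ± SD (n = 4). The MYOM2 share is 40.0% to 43.3% in controls and 25.5% to 37.5% in banded libraries, and both ratios are higher in all 4 banded libraries.

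Per kilobase of gene model, the order of the levels in controls was TCAP (1102 ± 78.3 CPM per kilobase, SD, n = 4), MYOZ2 (354 ± 41.3), the TTN 3′ model (347 ± 80.9), ACTN2 (167 ± 19.8), MYOM2 (76.8 ± 14.1), MYOM1 (70.7 ± 15.7), MYOT (64.6 ± 10.4), MYOM3 (38.3 ± 2.81) and ACTN3 (0.155 ± 0.0353). Neighbours overlapped for MYOZ2 and TTN, for MYOM2 and MYOM1 and for MYOM1 and MYOT. In banded libraries the order was TCAP (1535 ± 544 CPM per kilobase), MYOZ2 (644 ± 116), ACTN2 (253 ± 44.7), the TTN 3′ model (199 ± 38.7), MYOT (152 ± 53.7), MYOM1 (65.0 ± 11.8), MYOM2 (45.1 ± 12.9), MYOM3 (23.4 ± 2.09) and ACTN3 (0.0243 ± 0.0172). ACTN2 stood above the TTN model and MYOT above MYOM1 and MYOM2 in this order, with values of ACTN2 and TTN, of TTN and MYOT and of MYOM1 and MYOM2 overlapping. The lengths include merged parts of neighbouring genes, which lowers the level per kilobase where those parts carry few reads. The TTN model is a fragment of its gene, so its place in the order depends on the annotation.

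The banded animals differed from each other more for some genes than for others. The highest over the lowest banded value was 2.31 for MYOT, 2.22 for TCAP and 2.13 for MYOM2, and 1.22 for MYOM3, 1.42 for ACTN2 and 1.57 for MYOZ2. Among controls it was 1.46, 1.19, 1.49, 1.16, 1.31 and 1.27 for the same genes. MYOM1 spread less in banded libraries (1.48) than in controls (1.59), and ACTN3, at very few counts, spread most (5.45 against 1.63). Banded 3 held the highest MYOT, MYOZ2 and ACTN2 and the lowest MYOM2, MYOM3 and TCAP of the banded group. Banded 4 held the highest TCAP and MYOM3.

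The log2 fold changes in the authors' deposited table were set against DESeq2 fits of all 8 libraries and of 7 libraries with 1 left out in turn. For 12959 genes with a mean of at least 10 in the authors' deposited table, the fit without banded 3 gave a value within 0.01 (log2) of the table's for 100% of genes, against 6.47% with all 8 libraries and 4.41% to 6.81% without any 1 other library. In the authors' deposited table the values of banded over control were 0.77 for MYOZ2 (adjusted p = 6.49e-05), 0.97 for MYOT (1.50e-05) and 0.51 for ACTN2 (0.0175). They were 0.63 for TCAP (0.0151), -0.59 for MYOM2 (0.00811), -0.67 for MYOM3 (9.42e-06), -2.98 for ACTN3 (0.00361) and -0.06 for MYOM1 (0.907) in the authors' deposited table. DESeq2 run here without banded 3 called 7 of the 8 genes (4 higher and 3 lower), DESeq2 on all 8 libraries 6 (3 and 3), and edgeR without banded 3 called 4 (2 and 2). Over all genes the same fits called 1613 of 13965, 1710 of 13697 and 938 of 13965. ACTN3 is among the genes called lower in each fit, and its call is no support.

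Other genes of the Z-disc were called in both directions. Of 27 tested, 3 were called higher and 1 lower, with a median log2 fold change of 0.36, against 6.97% of all genes called and a median of 0.02. The median was 0.07 without banded 3, with 4 called higher and 1 lower, against 938 of 13965 genes called over all genes. DES, which encodes the intermediate filament desmin that ties Z-discs together, averaged 2899 ± 649 CPM in controls against 10958 ± 1911 CPM under banding (SD, n = 4) and rose by 1.92 ± 0.20 (log2, SE, edgeR adjusted p = 0.00047). PDLIM1, a PDZ-LIM protein gene that binds alpha-actinin, rose from 151 ± 8.28 to 312 ± 55.1 CPM (adjusted p = 0.00266). CRYAB, the small heat-shock protein alpha-B-crystallin, was at 682 to 976 CPM in controls and at 1947, 1792, 6406 and 2172 CPM in banded 1 to 4. It rose by 1.95 ± 0.41 on the log2 scale (SE, adjusted p = 0.0239). Without banded 3 this was 1.30, and the call ended without control 1 (0.0737), control 2 (0.0798), control 3 (0.0769) or control 4 (0.0539) and without a low-count filter (0.0611). KY, a Z-disc protein gene of muscle maintenance, averaged 14.6 ± 0.977 CPM in controls against 3.05 ± 1.24 CPM under banding and fell (-2.26 ± 0.29 on the log2 scale, adjusted p = 0.00143). The groups did not overlap for 7 of the 27, against 15.9% of all genes tested. Of these 7, NEB, CSRP3 and NRAP were higher under banding but missed the threshold (log2 fold changes 1.54, 1.69 and 1.39, edgeR adjusted p = 0.0631, 0.0649 and 0.145). NEB and CSRP3 passed in DESeq2 (0.000404 and 0.0290), and NRAP did not (0.141). Banded 3 held the highest CSRP3 and NRAP.

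The relatives of the 8 genes did not pass the test in edgeR. The non-muscle alpha-actinins ACTN1 and ACTN4 were at 56.8 and 103 CPM (control and banded means, edgeR adjusted p = 0.0583) and at 169 and 157 CPM (0.661). The log2 fold change of ACTN1 was 0.86 ± 0.24 (SE), with overlapping groups. It passed in DESeq2 (adjusted p = 0.00843) and not in limma-voom with quality weights (0.0611). MYOZ1 and MYOZ3, the skeletal myozenins, stayed near detection, with 0.580 to 1.61 and 0 to 0.925 CPM in controls and 0.683 to 1.25 and 0.174 to 2.24 CPM in banded libraries. LDB3, which encodes the PDZ-LIM protein ZASP that binds alpha-actinin, was at 556 and 519 CPM (adjusted p = 0.751).

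Among all genes tested, 3.47% were called higher and 3.50% lower, with a median log2 fold change of 0.02. Of 24 other M-band and titin-associated genes tested, 5 were called higher and 1 lower, with a median of -0.13. Without control 1 or control 2 a single gene was called (FHL1, higher), without control 3 they were 1 and 1, without control 4 they were 2 and 1, without banded 1 they were 2 and 2, and with library size alone they were 2 and 1. Over all genes 399 of 13927, 415 of 13926 and 409 of 13906 were called without control 1, control 2 and control 3. The number was 786 of 13982 without control 4, 797 of 13945 without banded 1, 811 of 13697 with library size alone and 987 of 20494 with no low-count filter. With no low-count filter 2 of 27 were called higher and 2 lower, and the median was 0.12. FHL1, a LIM protein gene of the titin spring region, averaged 200.2 ± 19.4 CPM in controls against 837 ± 389 CPM under banding (SD, n = 4) and rose by 2.06 ± 0.27 (log2, SE, edgeR adjusted p = 0.00188). CMYA5, the gene of myospryn, fell from 493 ± 64.1 to 216 ± 77.5 CPM (-1.19 ± 0.25 on the log2 scale, adjusted p = 0.0197). Leaving out control 1 (0.0603), control 2 (0.0637) or banded 2 (0.0532) ended this call. The titin-binding muscle ankyrin repeat genes were called higher, ANKRD1 by 2.70 ± 0.54 (adjusted p = 0.0234), ANKRD23 by 0.65 ± 0.15 (0.0288) and ANKRD2 by 6.95 ± 1.57 (0.0490) on the log2 scale. ANKRD2 was near detection in controls 1 to 4 (0.587, 0.986, 0.0843 and 0.231 CPM), against 6.43 to 198 CPM in banded libraries. Controls 3 and 4 fell below the minimum count, so ANKRD2 entered the test through the banded group and its call is no support. DESeq2 on all 8 libraries gave it no p-value. TRIM54, a titin-associated ring-finger gene, was called higher too (1.19 ± 0.31, adjusted p = 0.0463). Each of these 4 calls ended without control 1, control 2 or control 3 (adjusted p 0.0621 to 0.143). Those of ANKRD2, ANKRD23 and TRIM54 also ended without control 4 (0.104, 0.0555 and 0.0975) or banded 1 (0.0577, 0.0646 and 0.0594), that of ANKRD2 without banded 2 (0.0626) and that of TRIM54 without banded 4 (0.0629). With no low-count filter the calls of ANKRD1 (0.0659), ANKRD2 (0.0779) and TRIM54 (0.0810) ended, and with library size alone those of ANKRD2 (0.0596), ANKRD23 (0.0832) and TRIM54 (0.0557). ANKRD1 reached 12498 CPM in banded 3, against 2525 to 4060 CPM in the rest of the banded group. Without banded 3 the log2 fold changes of ANKRD1, ANKRD2 and TRIM54 were 1.99, 4.76 and 0.77. CKM, the muscle creatine kinase bound to the M-band and the most abundant of this list, was at 7210 ± 1320 and 5746 ± 817 CPM (mean 7209.8 in controls) and was not called (adjusted p = 0.299). The groups did not overlap for 9 of the 24 genes, against 15.9% of all genes tested. ANKRD2 is counted in the 9, and its lack of overlap is no support either. Of these 9, OBSL1, MYBPC3 and SQSTM1 missed the threshold. The first stood at 77.5 and 52.1 CPM (control and banded means; 0.0620), MYBPC3 at 2905 and 2314 CPM (0.188) and SQSTM1, the higher under banding, at 164 and 208 CPM (0.130).

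**Figure D4:**
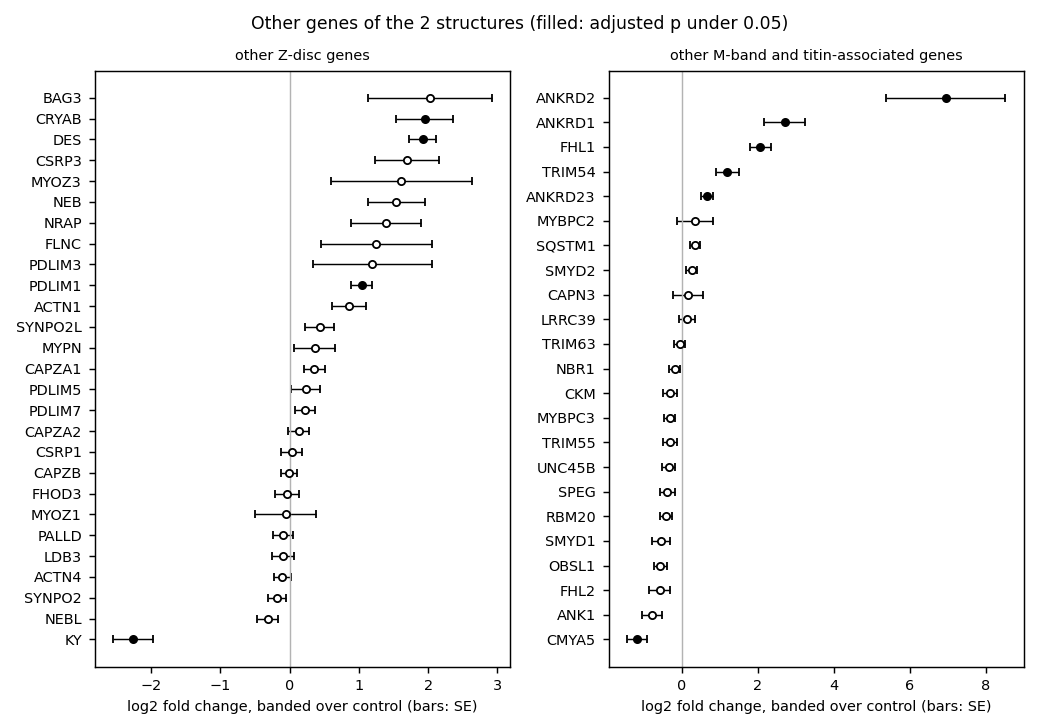
Log2 fold change of banded over control (horizontal axes, bars: SE) for tested genes of the lists of other Z-disc genes and of other M-band and titin-associated genes. Filled points have an adjusted p under 0.05: CRYAB, DES, PDLIM1 and KY on the left, and ANKRD2, ANKRD1, FHL1, TRIM54, ANKRD23 and CMYA5 on the right.

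Since ACTN3, MYOM3 and MYOT are also genes of skeletal muscle, a list of skeletal muscle genes was set beside them. Of 21 matched genes 10 passed the low-count filter. Among all genes tested 3.47% were called higher and 3.50% lower, and 3 of these 10 were called, each higher in banded pigs. These were TNNT1, the slow skeletal troponin T (36.4 ± 7.87 to 1183 ± 392 CPM, SD, n = 4), ACTA1, the skeletal alpha-actin (6125 ± 749 to 14933 ± 4638 CPM), and CASQ1, the skeletal calsequestrin (17.8 ± 4.90 to 85.3 ± 47.2 CPM), with edgeR adjusted p-values of 2.42e-05, 0.00688 and 0.0194. The call of CASQ1 ended without control 1 (0.0603) or control 2 (0.0642), with no low-count filter (0.0525) and without both control 4 and banded 3 (0.0722). TNNI1, the slow skeletal troponin I, was at 56.8, 48.6, 7.5 and 2.08 CPM in controls 1 to 4 and at 1.05 to 3.51 CPM in banded libraries. Controls 1 and 2 were far above the rest. Its log2 fold change of -3.82 missed the threshold in edgeR (adjusted p = 0.0916) and passed in DESeq2 (0.00175), where the list had 3 genes called higher and 1 lower. The list's counts were also 3 and 1 without robust estimation and without control 4. Markers of adult skeletal fibres other than CKM were near 0: the 6 matched genes summed to 0.393 to 0.880 CPM in controls and 0.417 to 2.16 CPM in banded libraries. PVALB had 0 counts in all 8 libraries, ATP2A1 a single count in 1 library, and TNNT3 at most 4.

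Genes whose profile over the 8 libraries was closest to a called gene were found by the root mean square difference of centred log2 CPM, among 11321 named genes with a mean of at least 1 CPM. For MYOM3 they were MYCBP2 (0.0527), MSL1 (0.0747) and IRAG1 (0.0847). For MYOZ2 they were MYL2, the ventricular regulatory myosin light chain (0.0891), SSR3 (0.0994) and ISOC1 (0.119). MYL2 itself was at 9264 ± 1353 and 17465 ± 2543 CPM (SD, n = 4). For MYOT they were SRM (0.135), HSPB7, a small heat-shock protein gene (0.160), and MED8 (0.167). For ACTN3 they were MAOB (0.305), FLACC1 (0.308) and ADAM22 (0.336), a looser likeness than for the other 3 genes.

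The tissue carried the markers of ventricular muscle in all libraries. The 9 matched cardiomyocyte markers summed to 36420 to 47490 CPM in controls and 42430 to 55860 CPM in banded libraries, which overlapped. Of these 9, 1 was called higher (MYL2) and 1 lower (ACTC1), against 6.97% of all genes tested. The gene model of TNNI3, the cardiac troponin I, was at 12.6 to 20.6 CPM in controls and 2.44 to 11.3 CPM in banded libraries. These did not overlap but missed the threshold (log2 fold change -1.25, edgeR adjusted p = 0.0898). The cardiac troponin genes TNNT2 and TNNC1 averaged 8140 and 6012 CPM in controls. Whether the TNNI3 model holds all reads of its gene was not tested, so these values are not read as the gene's level. The 5 endothelial markers summed to 745 to 877 CPM and 786 to 806 CPM (lowest banded value 786.5), and the 7 fibroblast markers to 8472 to 11690 and 6636 to 12100 CPM. Of these 7, 1 was called (PDGFRA, log2 fold change -0.49, edgeR adjusted p = 0.0480), against 6.97% of all genes tested. Not called were LUM, COL1A1 and COL1A2, with positive log2 fold changes (0.58, 0.25 and 0.13), and DCN, COL3A1 and TCF21, with negative ones (-0.18, -0.24 and -0.23). The 5 macrophage markers summed to 216 to 368 and 306 to 698 CPM, which overlapped. Single libraries stood out in other markers: banded 1 in adipocyte genes (292 CPM summed, against 3.71 to 32.2 CPM elsewhere), and banded 4 in haemoglobin beta (1730.3 CPM, against 72.0 to 313 CPM). The 6 smooth muscle and pericyte markers summed to 724 to 977 CPM in controls and 607 to 1886 CPM in banded libraries. Of these, CNN1 (calponin) was at 1348 CPM in banded 3, 156 to 349 CPM in the other banded libraries and 61.7 to 116 CPM in controls, while MYH11 and ACTA2 were within or below the range of the controls in banded 3 (40.8 and 136 CPM). Banded 3 also had the lowest share of mitochondrial counts, 30.5% against 35.4% to 43.9% in the other libraries. Without banded 3 the log2 fold changes were 0.77 for MYOZ2, 0.97 for MYOT, 0.51 for ACTN2, 0.63 for TCAP, -0.59 for MYOM2 and -0.67 for MYOM3. The part of these cell types, and of the mitochondrial share, in the results was not tested. Banded 4 is also the library with the highest TCAP, and MYOZ2, MYOT and MYOM3 differed between the groups about as much without it, with log2 fold changes of 0.84, 1.25 and -0.77.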

How the data were processed

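Read pairs per gene were counted by the authors with featureCounts 1.6.2 (mapping quality of at least 10, strand setting 2, no option for reads that overlap several genes) on Ensembl's annotation of Sscrofa11.1, per the file headers. The deposited counts are whole numbers, not normalised. Trimmomatic, HISAT2, Subread and DESeq2 are named in the submitters' processing notes without versions. The authors' deposited table gives log2 fold changes with control as numerator, turned round here, with their standard errors, the mean normalised signal, a Wald score and p-values, under DESeq2 column names.

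Genes passing filterByExpr (minimum count 10, minimum total 15) were scaled by TMM and tested by quasi-likelihood F tests in edgeR 4.0.16, R 4.3.3 (robust, two-sided, Benjamini-Hochberg over all 13697 genes, threshold 0.05). CPM are TMM-normalised, and a standard error is the log2 fold change over the square root of F. A count of 0 allows 0.0878 to 0.0967 CPM (3 counts, counting error only). On simulated counts of 13486 genes the test called 4.55% of genes changed 1.5-fold, 52.2% changed 2-fold and 84.1% changed 4-fold, so 1.5-fold differences mostly go undetected at this size.

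The members and lists were chosen with earlier results of these data known, so they are no independent support. From each list the rule named up to 6 called genes, by adjusted p, and the 2 with the highest CPM, and 3 most similar genes for each called member. Other genes (RBM20, ACTN1, ACTN4, MYOZ1, MYOZ3, LDB3, NEB, CSRP3, NRAP, OBSL1, MYBPC3, SQSTM1, TNNI1, MYL2 and markers) were chosen after their values were seen. Of the M-band list, 1 gene is counted but not reported here. Ratios planned against TTN used the 3′ model, since no model carried the name. Alternatives were DESeq2 1.42.0, limma-voom (limma 3.58.1), other scalings and filters, no robust estimation, leaving out mitochondrial genes and each library in turn. Chosen after seeing the data were leaving out control 4 with banded 3, and DESeq2 without banded 3.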

Additional observations from a re-analysis of the deposited data

How the results depend on the processing

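No paired analysis was possible because the labels give the groups no shared replicate numbers. Of the 8 genes, 4 were called with all libraries in edgeR (ACTN3 among them, whose call is no support), and 2 to 4 when 1 library was left out, with 2 without control 1, 2 or 3. DESeq2 without banded 3 called 7. Over all genes 954 were called, 399 to 962 when 1 library was left out, 1710 by DESeq2 and 1613 by DESeq2 without banded 3. No log2 fold change of the 8 genes or of the TTN models changed sign in any alternative. Scaling by library size alone shifted the all-gene median (log2) by -0.10 and moved the share of calls that were higher from 49.8% to 37.4%, while the calls among the 8 genes stayed at 2 higher and 2 lower. With 1 library left out, the exact permutation test cannot go below 0.0571, so its p says nothing about stability there. The differences were then -9.40 to -5.38 percentage points for the MYOM2 share, 0.93 to 1.36 for TCAP to TTN and 1.23 to 1.48 for ACTN2 to TTN. Depth limits ACTN3. The inner TTN models had few counts, and the parts of depth and of nested models in this were not tested. For none of these shifts was the cause tested.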
